A study of Mus musculus with 10 samples.

Results

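Cytochrome P450 enzymes form a large family of oxidising enzymes, and the genes described here are its members outside the Cyp1 family. They were chosen by name: protein-coding genes of the GENCODE M21 annotation (GRCm38) whose symbol is Cyp, a number, a letter and a number, with *Cyp1a1*, *Cyp1a2* and *Cyp1b1* left out. Of 21911 protein-coding genes, 90 met this rule. Chromatin accessibility around them was read from Omni-ATAC-seq, in which a transposase cuts and tags open DNA, as the peaks called in each of 10 libraries of mouse colon organoids, cultures grown from colonic crypts. The wild-type (WT) organoids came from littermates of mice in which a Cre recombinase driven by the Villin promoter removes a floxed *Ahr* in intestinal epithelium (AHR KO), on a C57BL/6 background. Organoids were kept in WENR, a medium with Wnt3a (2 WT and 3 AHR KO libraries), or were analysed in ENR at day 4 after Wnt3a withdrawal (d4 ENR; 3 WT and 2 AHR KO libraries). By the study's methods WENR also holds nicotinamide and inhibitors of p38 and ALK5, so the media differ by more than Wnt3a, and all groups share EGF, Noggin and R-spondin. The labels do not state which libraries come from separate mice, so p-values measure the spread between these libraries, and ages are not among the facts used here.

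P450 enzymes carry a haem group with which they insert oxygen into small molecules. The Cyp1 genes are the classical targets of the aryl hydrocarbon receptor (AHR), whereas members of the Cyp2, Cyp3 and Cyp4 families oxidise drugs, arachidonic acid and other fatty acids, and a smaller number of members each serve 1 hormone or sterol pathway: the Cyp26 enzymes break down retinoic acid, *Cyp2r1* and *Cyp27b1* activate vitamin D and *Cyp24a1* inactivates it, and *Cyp7a1*, *Cyp7b1*, *Cyp8b1*, *Cyp27a1*, *Cyp39a1* and *Cyp46a1* turn cholesterol into oxysterols and bile acids. Many Cyp2, Cyp3 and Cyp4 genes lie in tandem clusters of closely similar copies.

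The peak lists held 30354729 to 49126792 fragments per library. WENR lists had 61485 to 65308 peaks over 61.8 to 67.2 Mb, and d4 ENR lists had 33433 to 58359 peaks over 26.2 to 50.1 Mb. Peaks took 63.0% to 68.6% of the coverage in WENR and 14.1% to 44.2% in d4 ENR, with the shortest list and the lowest share in WT d4 ENR replicate 1, which stands apart. In d4 ENR both AHR KO libraries had larger shares (33.8% and 44.2%) than the 3 WT libraries (14.1%, 24.4% and 30.9%). These differences run along the same axes as the comparisons below. Their part in the results cannot be told apart from an effect of medium or genotype at single genes. Scaled values do not separate them either, since the scales come from the same lists. The epithelial markers *Epcam*, *Krt8*, *Krt18*, *Cdh1*, *Vil1* and *Cdx2* had a peak at their start in 10 of 10 libraries, and the immune, fibroblast and endothelial markers *Ptprc*, *Cd3e*, *Col1a1*, *Col1a2*, *Pdgfra*, *Pecam1* and *Cdh5* in 0, although a peak lay elsewhere in or near *Col1a1* and *Pdgfra* in 10, *Pecam1* in 9 and *Ptprc* and *Cdh5* in 8. Of the hepatocyte markers, *Alb* and *Serpina1a* had none at the start and *Ttr* had one in all 10. Over the targeted gene *Ahr*, the WENR libraries had 2142 and 2544 bp in peaks for WT and 5130, 5346 and 7017 bp for AHR KO. Covered bases do not show whether the floxed part was removed, so they do not check the labels.

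The window of a gene was its body and the 5 kb flanking it at either end, and the bases inside peaks were added up in it. Of the 90 members, 61 had a peak in their window in 1 library or more and 35 (38.9%) in all 10, whereas 78.8% of all protein-coding genes had one in 1 library or more and 64.9% in all 10. The gene's own start lay in a peak in all 10 libraries for 17 members (18.9%), against 45.5% of all genes. These 17 were *Cyp20a1*, *Cyp27a1*, *Cyp2u1*, *Cyp2j6*, *Cyp2j9*, *Cyp3a13*, *Cyp2s1*, *Cyp2b10*, *Cyp4v3*, *Cyp8b1*, *Cyp46a1*, *Cyp2d10*, *Cyp2d34*, *Cyp2d26*, *Cyp4f16*, *Cyp4f40* and *Cyp4f13*. Between 36 (WT d4 ENR replicate 1) and 56 (WT d4 ENR replicate 3) members had a peak in a single library.

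The 29 members with no peak in any library fell mostly into tandem clusters. All 4 Cyp2a genes, all 5 Cyp4a genes, 5 of 7 Cyp3a genes, 7 of 15 Cyp2c genes and 3 of 8 Cyp2j genes had none, as did *Cyp2b23*, *Cyp2g1*, *Cyp11b2*, *Cyp21a1* and *Cyp26c1*. All 8 Cyp2d and all 9 Cyp4f genes had a peak in at least 1 library. How reads that match several copies were counted is not given in the sources used here, so the share of 50-base words of each window that occur once in the genome was computed. It had a median of 80.8% (range 57.5% to 99.8%) in the 29 members without a peak, 93.1% in the 26 with a peak in some libraries and 95.1% in the 35 with a peak in all 10. Repeated sequence thus moved with the absence of peaks, and its part in it was not tested. The lowest shares with peaks in all or nearly all libraries were in *Cyp2c68* (54.9%) and *Cyp2c40* (56.0%), and *Cyp26c1*, with no peak, had 99.8%.

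Merged over libraries, the peaks in the windows of the members formed 155 regions, of which 1 was shared by the windows of *Cyp4f13* and *Cyp4f14*. By midpoint, 33 (21.3%) were in promoters (1 kb before to 100 bp after any annotated transcription start), 20 in exons, 75 in introns and 27 between genes, whereas promoters held 15.1% of all 85680 regions of the series. The windows leave out regions far from genes, which all regions include. Between genes lay 17.4% of the regions over members and 32.8% of all. The higher promoter share is therefore not read as a trait of the members. A peak was called in all 10 libraries in 49 regions (31.6%, against 32.9% of all regions). The start of another protein-coding gene lay in the promoter regions of *Cyp24a1* (*Pfdn4*) and *Cyp39a1* (*Slc25a27*), whose accessibility cannot be assigned to 1 of the genes.

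**Figure D1:**
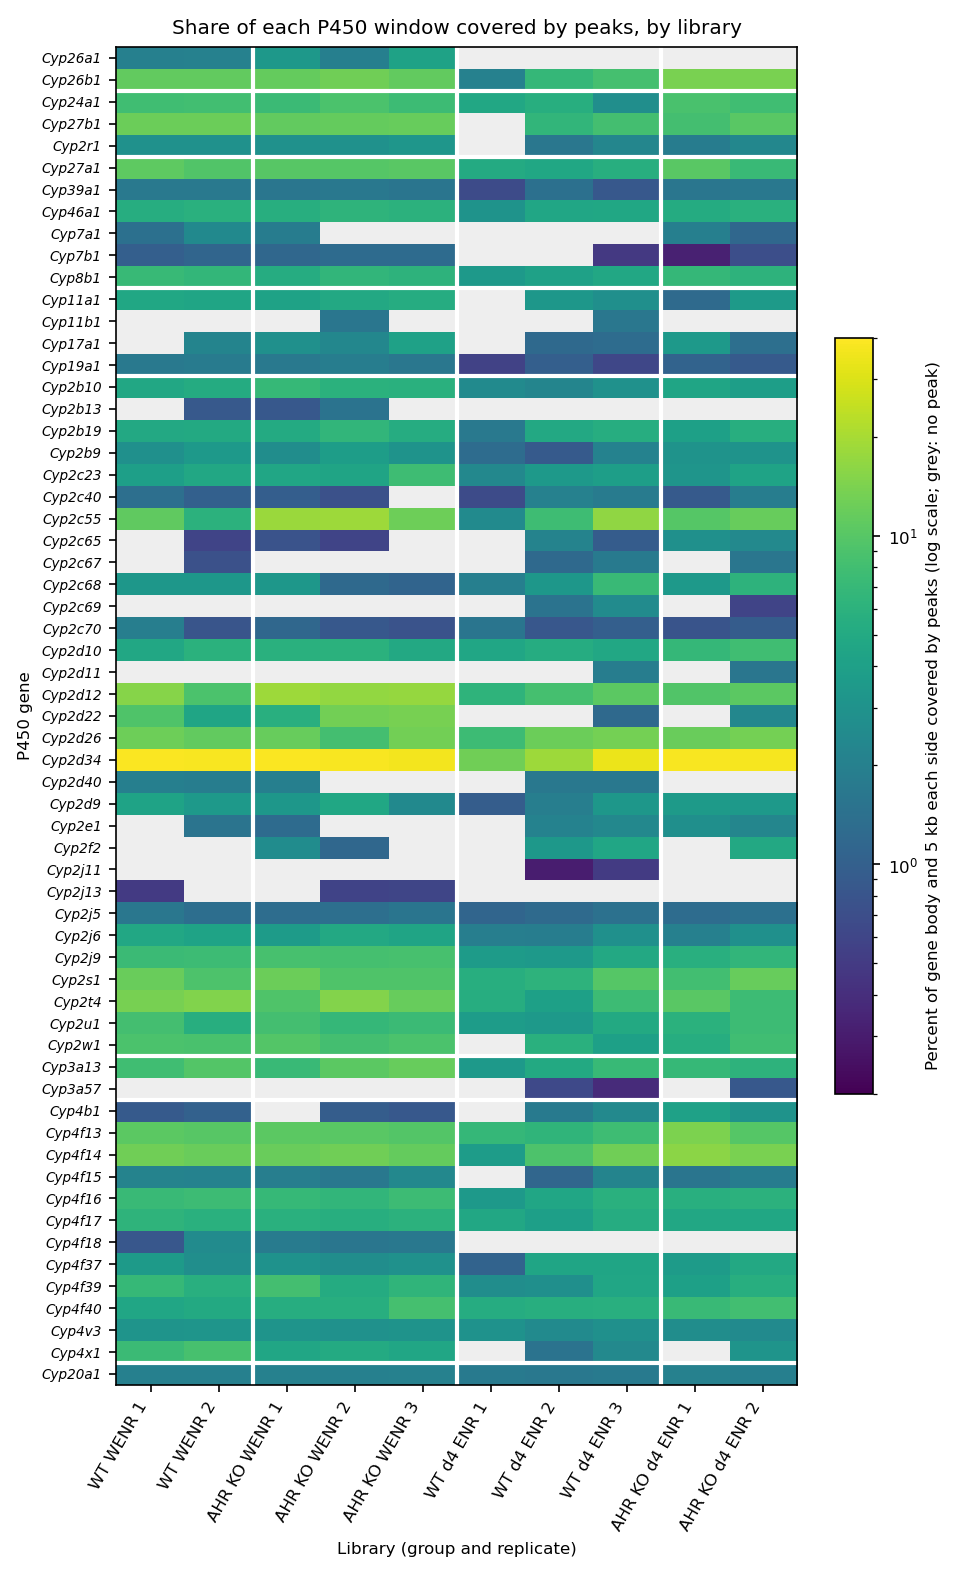
Percent of the window (gene body and 5 kb each side) covered by peaks, on a log colour scale, for the 61 P450 genes (rows, by group: retinoic acid, vitamin D, sterol and bile acid, steroidogenic, Cyp2, Cyp3, Cyp4, other) that had a peak in any of the 10 libraries (columns, by genotype, medium and replicate). Grey cells have no peak; WT d4 ENR replicate 1 has peaks at 36 of these genes, the fewest of any library, and *Cyp2d34* has the highest share.

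Wnt3a withdrawal was compared within each genotype. In 18 of the 61 members with a peak, all WENR libraries had more covered bases than all d4 ENR libraries in both genotypes, against 51.3% of the 17265 genes with a peak, and 0 members went the other way, against 0.301% of genes. In the exact permutation test within genotypes (100 arrangements, 2-sided), such separation always gives p = 0.02, the smallest it allows. The adjusted p over all genes with a peak, 0.0387, thus restates the separation, here and for single genes below. The 18 were *Cyp7b1*, *Cyp2j6*, *Cyp2j9*, *Cyp4x1*, *Cyp3a13*, *Cyp2w1*, *Cyp2b10*, *Cyp2r1*, *Cyp4v3*, *Cyp4f18*, *Cyp19a1*, *Cyp11a1*, *Cyp27b1*, *Cyp2d22*, *Cyp4f17*, *Cyp4f16*, *Cyp26a1* and *Cyp2c23*. The median difference, d4 ENR minus WENR, was -294 bp over members with a peak and -575 bp over all genes with a peak. By limma, on the log2(covered bases + 100) scale, the medians were -0.40 and -0.48.

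The counts changed with the scale. With every list shortened to its 33433 most significant peaks, 8 members had less (35% of genes) and 1, *Cyp4f40*, had more (1.52% of genes) in d4 ENR. When covered bases were divided by the total covered length of the library, 5 members had less (11.5% of genes) and 13 had more (29.6% of genes). The 5 were *Cyp7b1*, *Cyp4x1*, *Cyp4f18*, *Cyp2d22* and *Cyp26a1*, and *Cyp7b1* was the member with less under all 3 measures. The share of all genes with less under all 3 is not given here. Without WT d4 ENR replicate 1, 18 members had less (52.2% of genes) and 5 had more (0.999% of genes): *Cyp4b1*, *Cyp2e1*, *Cyp4f37*, *Cyp2c65* and *Cyp2c68*.

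**Figure D2:**
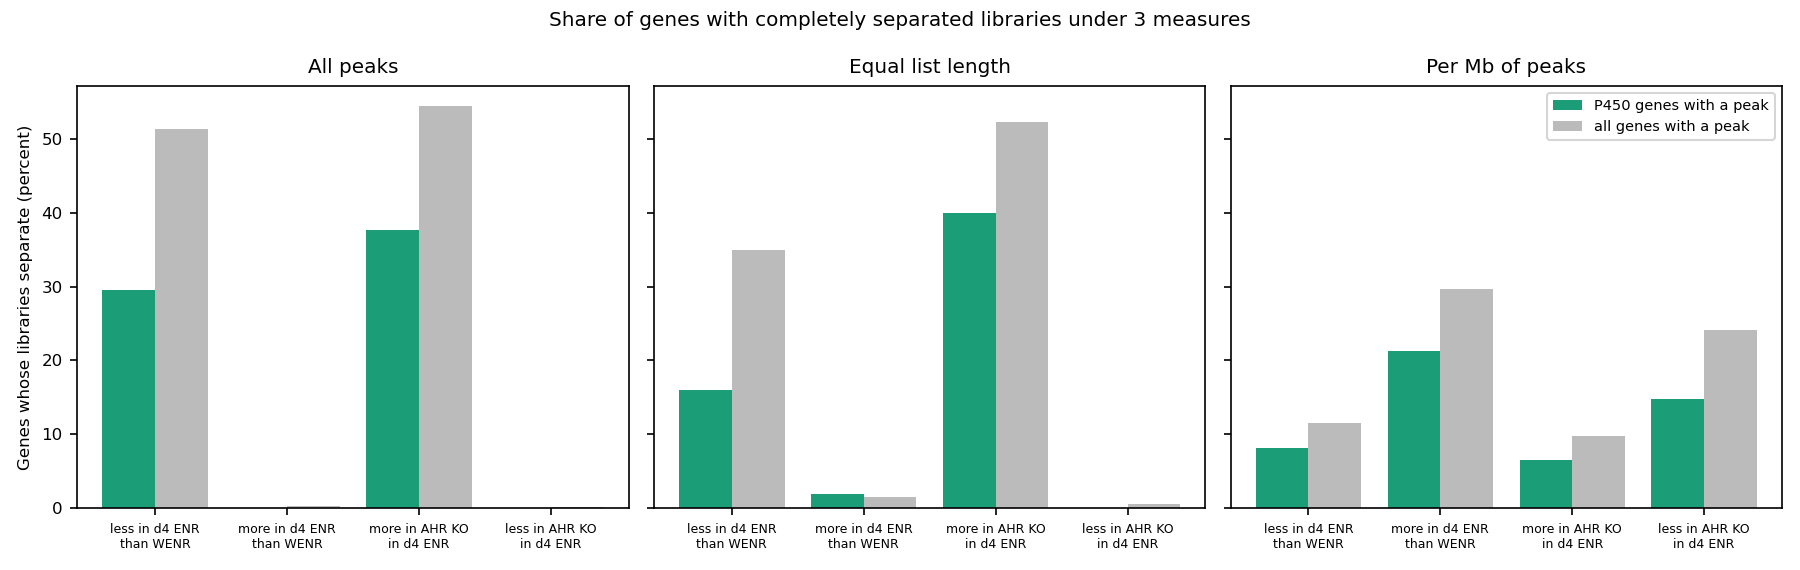
Percent of genes whose libraries separated completely, for the P450 genes with a peak (green) and all genes with a peak (grey), in 4 directions of comparison and under 3 measures of coverage. With all peaks 29.5% of P450 genes and 51.3% of all genes were covered less in d4 ENR, and per Mb of peaks 8.2% and 11.5%.

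The retinoic acid hydroxylases differed from each other. In *Cyp26a1* (chr19:37697798-37701536, plus strand), which clears retinoic acid, 1 region was found, between genes at chr19:37703881-37704503, 6394 bp from the gene's start. Peaks covered 276 and 283 bp in the WT and 462, 272 and 587 bp in the AHR KO libraries in WENR, and 0 bp in all 5 d4 ENR libraries. The media did not overlap in either genotype, and coverage fell under all peaks and per Mb of peaks. Its fold_enrichment, the ratio of the fragment pileup to the background around it in that library, was low where it was called, from 2.4 to 3.3. At equal list length it was not among the 8 members with less. Of all regions, 5.46% were called in all 5 WENR and no d4 ENR library, and 4 of the 155 over members were: those of *Cyp26a1*, *Cyp4f18*, *Cyp2d22* and *Cyp4f39*.

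The start of *Cyp26a1* itself had no peak in any library. Its promoter is shown because it was the single member promoter with a retinoic acid receptor element, which is a pair of short motifs. The pair was searched on both strands as AGTTCA or AGGTCA followed in the same direction by another of them after 5 bases. The search took the 250 bases before and 50 after each gene's start in RefSeq (GRCm38). Such a pair was found in 0.0396% of all 32851 promoters of that length, and 69 of the 90 members had a promoter in the table. The 250 bases before the start, with the pair in capitals, read 5′ to 3′:
Cyp26a1, chr19:37697558-37697807, plus strand: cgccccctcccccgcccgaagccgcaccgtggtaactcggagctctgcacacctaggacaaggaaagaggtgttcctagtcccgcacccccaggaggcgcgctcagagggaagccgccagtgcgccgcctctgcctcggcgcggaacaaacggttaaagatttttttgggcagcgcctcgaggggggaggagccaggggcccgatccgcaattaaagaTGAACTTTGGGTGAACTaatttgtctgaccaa

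*Cyp26b1* (chr6:84571414-84593908, minus strand), which also clears retinoic acid, had no peak at its start. It had a weak region in an intron in 6 libraries and 1 broad region inside the gene, chr6:84587285-84591222, whose midpoint lies near another annotated transcription start and which had a peak in all 10 libraries. In WENR its window had 3651 and 3609 bp covered in WT and 3745, 4104 and 3619 bp in the AHR KO libraries. In d4 ENR it had 662, 2228 and 2703 bp in the WT and 4485 and 4512 bp in the AHR KO libraries. The genotypes overlapped in WENR and not in d4 ENR, where AHR KO was higher by 2634 bp, the largest such difference of any member, and *Cyp26b1* was one of 4 members with more in AHR KO d4 ENR per Mb of peaks. The broad peak was whole in all WENR and both AHR KO d4 ENR libraries and was called as separate shorter pieces in the 3 WT d4 ENR libraries. Its highest fold_enrichment was 2.8, 3.4 and 3.2 in WT and 2.9 and 2.8 in AHR KO d4 ENR libraries. The WT values belong to the shorter pieces and the AHR KO values to the whole peak, so they do not compare heights. By limma the log2 difference in d4 ENR was 1.43 ± 0.47 (SE), which missed the threshold (adjusted p = 0.0744).

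**Figure D3:**
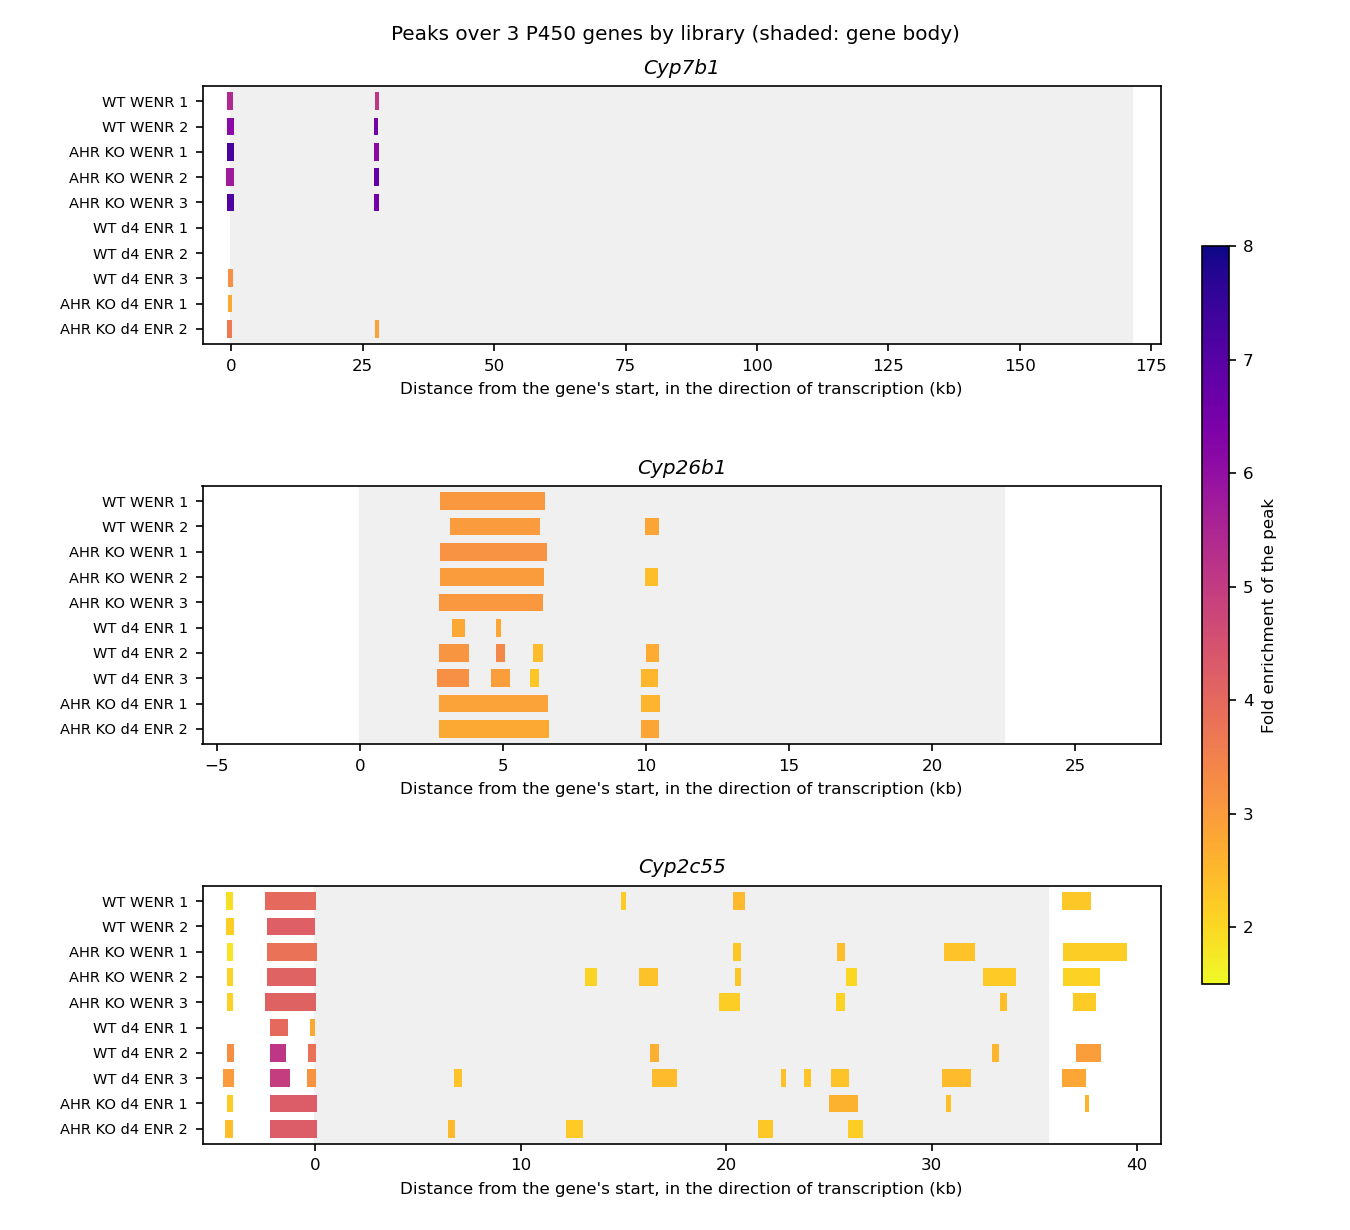
Peaks over *Cyp7b1*, *Cyp26b1* and *Cyp2c55* in each library (rows), by distance in kb from the gene's start in the direction of transcription, coloured by fold enrichment; the gene body is shaded, and peaks narrower than 1/250 of the panel are drawn at that width. The *Cyp7b1* region about 27.7 kb into the gene is called in 5 of 5 WENR libraries and in 1 d4 ENR library, AHR KO replicate 2.

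All 3 vitamin D enzymes had a peak in 9 or 10 libraries. *Cyp27b1* (chr10:127048250-127053006, plus strand), the activating 1-alpha-hydroxylase, had 1 region, inside the gene, which covered 1783 and 1811 bp in the WT and 1667, 1673 and 1738 bp in the AHR KO libraries in WENR, and 0, 975 and 1200 bp in the WT and 1222 and 1506 bp in the AHR KO libraries in d4 ENR. It was covered less in d4 ENR in both genotypes, and AHR KO lay above WT in d4 ENR and below it in WENR. *Cyp2r1*, the 25-hydroxylase, had a promoter peak in every library but WT d4 ENR replicate 1, with 684 ± 1.41 bp (SD, n = 2) in the WT and 701 ± 42.6 bp (SD, n = 3) in the AHR KO libraries in WENR and 303 ± 272 bp (SD, n = 3) and 489 ± 79.2 bp (SD, n = 2) in d4 ENR. Coverage of both genes fell in d4 ENR by the exact test (adjusted p = 0.0387) but not by limma (adjusted p = 0.183 and 0.131). *Cyp24a1*, which inactivates vitamin D, had 1918 and 1967 bp in WT WENR, 1817, 2159 and 1848 bp in AHR KO WENR, 1179, 1354 and 675 bp in WT d4 ENR and 2126 and 1942 bp in AHR KO d4 ENR libraries. Its AHR KO d4 ENR values lay within the range of WENR and above all 3 WT d4 ENR values (limma log2 difference 0.92 ± 0.24 (SE), adjusted p = 0.0448). This order held for covered bases alone. In WT d4 ENR replicate 3 the region was called as 2 pieces, with a fold_enrichment of 5.3, the highest of any library. The AHR KO d4 ENR libraries had 3.4 and 4.4. No member promoter held 2 of the motifs AGTTCA or AGGTCA in the same direction with 3 bases between, the spacing of vitamin D receptor sites, against 0.0122% of all promoters.

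All 6 sterol and bile acid enzymes had a peak in at least 5 libraries, and 5 of the 6 had more covered bases in AHR KO than in WT libraries in d4 ENR, as did 54.4% of genes with a peak. The exception was *Cyp7b1* (chr3:18071950-18243338, minus strand), the oxysterol 7-alpha-hydroxylase, which changed most with the medium in this group. It had 1797 and 2046 bp covered in WT and 2133, 2312 and 2295 bp in the AHR KO libraries in WENR, and 0, 0 and 869 bp in the WT and 592 and 1290 bp in the AHR KO libraries in d4 ENR. No d4 ENR library reached a WENR library (difference -1469 bp, exact adjusted p = 0.0387; limma log2 difference -2.25 ± 0.64 (SE), adjusted p = 0.0182). Its promoter region had a fold_enrichment of 5.4 to 7.2 in WENR and of 2.8 to 3.6 in the 3 d4 ENR libraries where it was called. The region inside the gene, chr3:18215214-18216128, had 5.1 to 6.8 in WENR and 2.9 in AHR KO d4 ENR replicate 2, the single d4 ENR library that called it.

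*Cyp8b1*, the sterol 12-alpha-hydroxylase, had a promoter peak in all 10 libraries. Peaks covered 843 and 798 bp in the WT and 634, 781 and 733 bp in the AHR KO libraries in WENR, and 423, 499 and 573 bp in the WT and 809 and 733 bp in the AHR KO libraries in d4 ENR. AHR KO was thus below WT in WENR and above it in d4 ENR, with no overlap in either medium. *Cyp39a1*, the 24-hydroxycholesterol hydroxylase, showed the same order, with 1585 and 1608 bp in the WT and 1504, 1554 and 1471 bp in AHR KO WENR, and 631, 1319 and 806 bp in the WT and 1518 and 1565 bp in AHR KO d4 ENR libraries. *Cyp27a1*, the sterol 27-hydroxylase, had 3476 ± 264 bp (SD, n = 2) in WT WENR, 3449 ± 67.5 bp (SD, n = 3) in AHR KO WENR, 1755 ± 141 bp (SD, n = 3) in WT d4 ENR and 3004 ± 731 bp (SD, n = 2) in AHR KO d4 ENR. The d4 ENR genotypes did not overlap (limma log2 difference 0.73 ± 0.14 (SE), adjusted p = 0.0221). *Cyp46a1*, the cholesterol 24-hydroxylase, had 1163, 1743 and 1764 bp in the WT and 1986 and 2168 bp in AHR KO d4 ENR libraries. *Cyp7a1*, the first enzyme of the classical bile acid pathway, had a weak region inside the gene in 5 libraries, with a fold_enrichment of 2.6 to 3.5. It was called in both AHR KO and no WT library in d4 ENR, as were 2.84% of all regions and 2 of the 155 over members, the other lying in *Cyp19a1*.

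**Figure D4:**
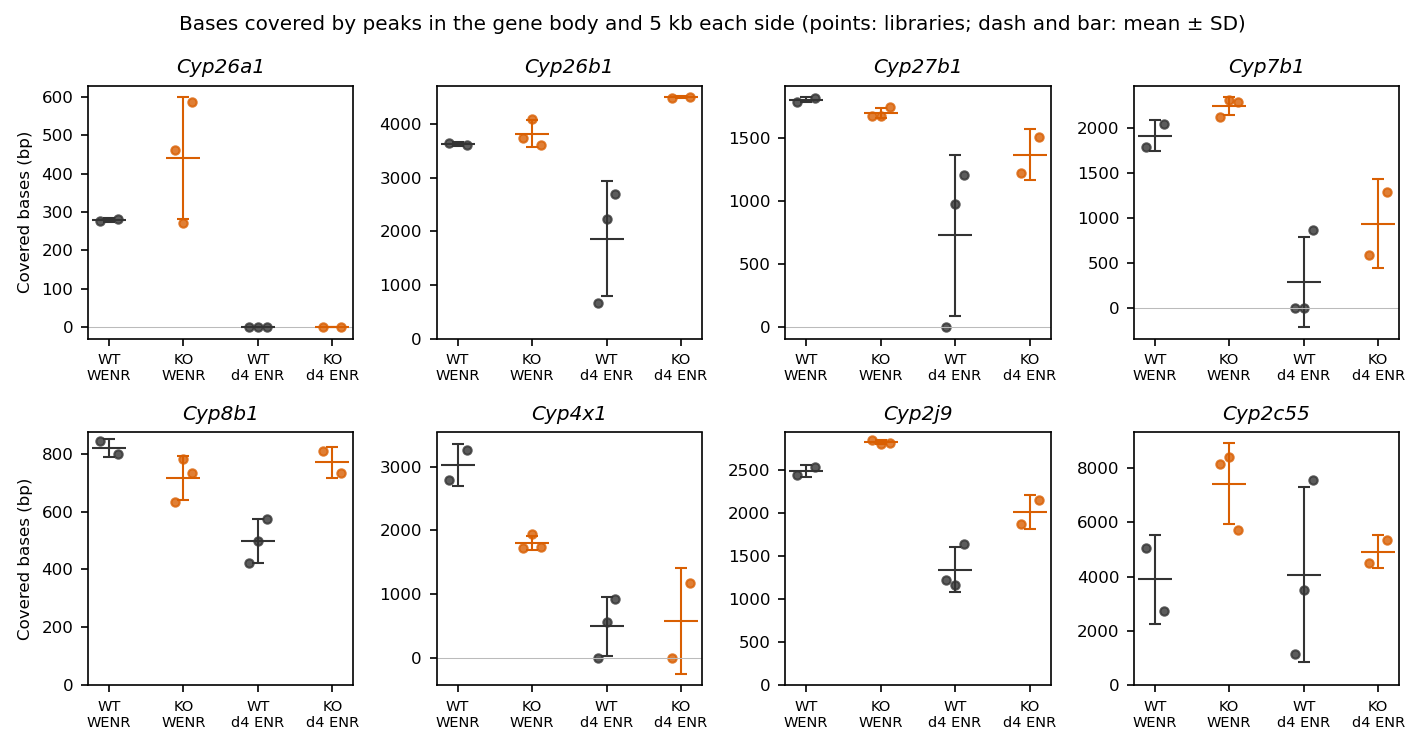
Bases covered by peaks in the window of 8 P450 genes (panels) by genotype and medium; each point is a library, and the dash and bar are the mean and SD of 2 or 3 libraries. *Cyp26a1* is at 0 in all 5 d4 ENR libraries, and the 2 AHR KO d4 ENR values of *Cyp26b1*, 4485 and 4512 bp, lie above all 3 WT d4 ENR values.

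Among the steroidogenic enzymes, *Cyp11b2* and *Cyp21a1* had no peak, *Cyp11b1* had a peak in 2 libraries, and no member had a peak at its start. *Cyp19a1*, the aromatase, had 2 regions inside the gene. Its window had 1893 and 2040 bp covered in WT and 1921, 2109 and 1848 bp in the AHR KO libraries in WENR, and 639, 1106 and 696 bp in the WT and 1208 and 1002 bp in the AHR KO libraries in d4 ENR. Coverage fell in d4 ENR (difference -1004 bp, exact adjusted p = 0.0387; limma log2 difference -0.99 ± 0.15 (SE), adjusted p = 0.00123). The region chr9:54258455-54259287 had a fold_enrichment of 5.2 to 5.6 in WENR and of 2.8 and 3.0 in AHR KO d4 ENR libraries and was not called in WT d4 ENR. *Cyp11a1*, which cuts the cholesterol side chain, was covered less in d4 ENR in both genotypes (difference -757 bp, exact adjusted p = 0.0387; limma adjusted p = 0.109). *Cyp17a1*, the 17-alpha-hydroxylase, had 0 and 353 bp in the WT and 461, 370 and 670 bp in AHR KO WENR libraries, and 0, 197 and 209 bp in the WT and 552 and 221 bp in AHR KO d4 ENR libraries.

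Of 47 Cyp2 genes outside *Cyp2r1*, 31 had a peak and 18 had one in all 10 libraries. The Cyp2c genes on chromosome 19, whose enzymes oxidise drugs and arachidonic acid, form 1 cluster apart from *Cyp2c23*, and 8 of 15 had a peak. *Cyp2c55* (chr19:39007019-39042693, plus strand) had the most regions, 15, and 11.4% of its window was covered on average over libraries. The region at its start, chr19:39004571-39007099, was called in all 10 libraries with a fold_enrichment of 3.8 to 5.1. The others were weak, from 1.8 to 3.2, and varied from library to library. Covered bases were 5057 and 2730 bp in the WT and 8165, 8395 and 5725 bp in the AHR KO libraries in WENR, and 1159, 3492 and 7553 bp in the WT and 4484 and 5341 bp in the AHR KO libraries in d4 ENR. The AHR KO values in WENR lay above the WT values, a difference of 3535 bp that is the largest of any member in WENR. In d4 ENR the genotypes overlapped, and limma gave a log2 difference of 0.62 ± 0.65 (SE).

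*Cyp2c65* was chosen after its values were seen. Its promoter region, chr19:39060734-39061451, had a fold_enrichment of 4.8 and 7.4 in WT d4 ENR replicates 2 and 3 and of 4.7 and 5.4 in the AHR KO d4 ENR libraries. In WENR it had 3.2 in 1 WT and 3.6 and 3.4 in 2 AHR KO libraries, and it was not called in WT d4 ENR replicate 1. Without that library d4 ENR lay above WENR in both genotypes. In *Cyp2c69* the 812, 1390 and 317 bp covered came from WT d4 ENR replicates 2 and 3 and AHR KO d4 ENR replicate 2, with no peak elsewhere. *Cyp2c67* had a peak in the same 3 libraries (609, 895 and 812 bp) and in WT WENR replicate 2 (371 bp). *Cyp2c40* had 767 and 567 bp in the WT and 544, 418 and 0 bp in the AHR KO libraries in WENR, a difference of -346 bp without overlap. In the windows of *Cyp2c69* and *Cyp2c67* 61.0% and 63.5% of 50-base words occurred once.

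The promoters of this cluster are shown because 6 of its genes, with *Cyp8b1*, *Cyp3a11* and *Cyp3a16*, held the HNF4 motif CAAAGTCCA, searched on both strands. It was found in 9 of 79 member promoters (11.4%) and in 0.475% of all promoters, and neighbouring copies share sequence, so these are not independent sites. HNF4 factors are nuclear receptors of gut and liver epithelium. Each sequence below is on the gene's strand with the motif in capitals, and the sites began at positions -125 to -45 from the RefSeq start.
Cyp2c65, chr19:39060874-39060914, plus strand: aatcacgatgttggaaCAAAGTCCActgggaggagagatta
Cyp2c67, chr19:39649143-39649183, minus strand: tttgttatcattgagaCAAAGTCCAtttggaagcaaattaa
Cyp2c68, chr19:39741154-39741194, minus strand: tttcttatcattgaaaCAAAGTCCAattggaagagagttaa
Cyp2c40, chr19:39812835-39812875, minus strand: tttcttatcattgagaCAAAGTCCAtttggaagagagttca
Cyp2c69, chr19:39886820-39886860, minus strand: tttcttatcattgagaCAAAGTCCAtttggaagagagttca
Cyp2c70, chr19:40187326-40187366, minus strand: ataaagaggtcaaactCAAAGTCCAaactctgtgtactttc
Cyp8b1, chr9:121916348-121916388, minus strand: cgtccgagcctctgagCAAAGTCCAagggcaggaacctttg
Cyp3a11, chr5:145879939-145879979, minus strand: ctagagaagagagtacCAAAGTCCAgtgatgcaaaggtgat
Cyp3a16, chr5:145469798-145469838, minus strand: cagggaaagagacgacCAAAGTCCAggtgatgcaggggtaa

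The printed stretches of *Cyp2c40* and *Cyp2c69* are the same. The start of the gene lay in a peak in 10 libraries for *Cyp8b1*, 9 for *Cyp2c70*, 7 for *Cyp2c65*, 6 for *Cyp2c68* and 0 for the other 5, so the motif stood in promoters with and without peaks. In the central 300 bases of regions the motif was in 5 of 155 over members (3.23%) and in 1.23% of all regions. The TEAD motif CATTCC was in 15.2% of member promoters and 14.7% of all, and the AP-1 motif TGANTCA in 7.59% and 7.81%, close to the background.

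All 8 Cyp2d genes, of which the human counterpart metabolises many drugs, had a peak. *Cyp2d34* (chr15:82615965-82620946, minus strand) had the highest share of its window covered of all members, 33.0% on average over libraries. Its values were 5809 and 5715 bp in the WT and 5809, 5700 and 5417 bp in the AHR KO libraries in WENR, and 1892, 2740 and 5095 bp in the WT and 5639 and 5601 bp in the AHR KO libraries in d4 ENR. The 2 AHR KO d4 ENR values were near those of WENR, and the WT d4 ENR values were lower and spread. Its fold_enrichment was low, with a median over libraries of 2.75 for the highest peak, whereas the pileup of that peak was 29.0 times the genome mean. The local background worked out from pileup and fold_enrichment was 7.85 times the genome mean, the highest of any member, against a median of 1.22 over members with a peak. Its fold_enrichment is relative to that background. *Cyp2d22* had 1817 and 882 bp in the WT and 1110, 2556 and 2681 bp in AHR KO WENR libraries, and 0, 0 and 240 bp in the WT and 0 and 456 bp in AHR KO d4 ENR libraries. It fell in d4 ENR under all peaks and per Mb of peaks (limma log2 difference -3.16 ± 0.59 (SE), adjusted p = 0.00333). *Cyp2d12* and *Cyp2d26* had 12.2% and 11.4% of their windows covered, and *Cyp2d12* had 1854 ± 683 bp (SD, n = 2) in the WT and 2706 ± 99.6 bp (SD, n = 3) in the AHR KO libraries in WENR.

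*Cyp2b10*, the classical target of the receptor CAR, had 1851 and 2029 bp in the WT and 2721, 2312 and 2235 bp in AHR KO WENR libraries, and 978, 878 and 1138 bp in the WT and 1757 and 1511 bp in AHR KO d4 ENR libraries. AHR KO lay above WT in both media. *Cyp2b9* had 621, 423 and 984 bp in the WT and 1425 and 1432 bp in AHR KO d4 ENR libraries. It was the single member with more in AHR KO d4 ENR with all peaks, at equal list length and per Mb of peaks (limma log2 difference 1.04 ± 0.28 (SE), adjusted p = 0.0484). The share of all genes that did so under all 3 is not given here. Its highest fold_enrichment overlapped between genotypes in d4 ENR, with up to 4.37 in WT and 4.36 and 4.84 in AHR KO libraries. In the window of *Cyp2b9* 75.9% of 50-base words occurred once. *Cyp2j9*, of the arachidonic acid epoxygenases, had 2433 and 2529 bp in the WT and 2843, 2802 and 2814 bp in AHR KO WENR libraries, and 1224, 1161 and 1637 bp in the WT and 1868 and 2152 bp in AHR KO d4 ENR libraries. It fell with the medium in both genotypes, and AHR KO lay above WT in both media. *Cyp2j6* fell with the medium (difference -1003 bp, exact adjusted p = 0.0387; limma log2 difference -0.89 ± 0.16 (SE), adjusted p = 0.00252), while its highest fold_enrichment did not. *Cyp2t4* had 9.9% of its window covered on average.

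Of 7 Cyp3 genes, whose enzymes metabolise steroids and drugs, *Cyp3a13* had peaks in all 10 libraries and *Cyp3a57* in 3. *Cyp3a13* had 3051 and 3723 bp in the WT and 2812, 4039 and 4522 bp in AHR KO WENR libraries, and 1352, 1923 and 2752 bp in the WT and 2692 and 2367 bp in AHR KO d4 ENR libraries. Coverage fell in d4 ENR, with 1 AHR KO WENR value close to the d4 ENR range (limma log2 difference -0.66 ± 0.21 (SE), adjusted p = 0.0267). *Cyp3a57* had a peak in WT d4 ENR replicates 2 and 3 and AHR KO d4 ENR replicate 2, as *Cyp2c69* did.

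Many Cyp4 genes, though not all, encode fatty acid omega-hydroxylases, and 12 of the 17 Cyp4 genes had a peak. *Cyp4x1* had the largest change in covered bases with the medium among members that passed the test, from 2791 and 3259 bp in the WT and 1732, 1939 and 1744 bp in the AHR KO libraries in WENR to 0, 572 and 922 bp in the WT and 0 and 1170 bp in the AHR KO libraries in d4 ENR (difference -1874 bp, exact adjusted p = 0.0387; limma log2 difference -2.67 ± 0.83 (SE), adjusted p = 0.0258). Its highest fold_enrichment did not separate the media. The region inside the gene, chr4:115109498-115111984, had 3.3 to 4.9 in WENR and 4.1 to 4.5 in the d4 ENR libraries that called it. *Cyp4x1* was also the member with the largest deficit of AHR KO in WENR, -1220 bp. The longest peak in its window had 1957 and 2281 bp in the WT and 644, 563 and 661 bp in the AHR KO WENR libraries. Its highest pileup was 5.59 and 5.48 times the genome mean in the WT and 6.81, 5.98 and 7.07 times in the AHR KO libraries. In the region inside the gene fold_enrichment was 4.9 and 4.1 in WT and 3.5, 3.5 and 3.3 in AHR KO. The deficit in bases thus partly reflects how peaks were joined. *Cyp4f18* had peaks in the 5 WENR libraries alone, from 263 to 804 bp. *Cyp4f13* and *Cyp4f14*, whose windows share a region, had 2245, 2117 and 2501 bp and 829, 2012 and 2806 bp in WT d4 ENR and 4640 and 3229 bp and 3542 and 3061 bp in AHR KO d4 ENR libraries. The genotypes did not overlap, and limma called *Cyp4f13* (log2 difference 0.74 ± 0.15 (SE), adjusted p = 0.0231) and not *Cyp4f14* (0.93 ± 0.40 (SE), adjusted p = 0.125). *Cyp4f40* had its lowest coverage in WT WENR, with 1298 and 1386 bp, against 1524, 1543 and 2340 bp in AHR KO WENR, 1475, 1537 and 1586 bp in WT d4 ENR and 2041 and 2242 bp in AHR KO d4 ENR libraries. Regions called in d4 ENR other than WT replicate 1 and in no WENR library made up 1.06% of all regions and 3 of the 155 over members: 2 inside *Cyp4b1* and 1 past the end of *Cyp4f37*, which WT replicate 1 also had, with a fold_enrichment of 2.9 to 4.0 in all 5.

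Genotype was compared within each medium. In d4 ENR, 23 of the 61 members had both AHR KO libraries above every one of the 3 WT libraries in covered bases, against 54.4% of genes, and 0 had less, against 0.237% of genes. With 2 against 3 libraries the smallest p of the exact test is 0.2, so no single gene could pass it. By limma 7 of the 61 members were higher in AHR KO, against 13.9% of genes: *Cyp27a1*, *Cyp24a1*, *Cyp2j9*, *Cyp2b10*, *Cyp2b9*, *Cyp2d10* and *Cyp4f13*. The median log2 difference was 0.46 over members and 0.39 over all genes. At equal list length 20 members had more (52.2% of genes) and 0 had less (0.567% of genes). Per Mb of peaks 4 members had more (9.75% of genes) and 9 had less (24.1% of genes), so the direction of the counts depended on the scale. The 4 were *Cyp7a1*, *Cyp4b1*, *Cyp26b1* and *Cyp2b9*. Without WT d4 ENR replicate 1, 23 had more (57.8% of genes) and 3 had less (1.25% of genes): *Cyp2j11*, *Cyp2d40* and *Cyp2c69*. Without WT d4 ENR replicate 3 the first count was 36 (75.3% of genes), and without AHR KO d4 ENR replicate 1 it was 38 (71.6% of genes), so all genes rose with the members.

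In WENR, where the lists were of like length, 8 members had more covered bases in all AHR KO than in both WT libraries, against 11.8% of genes, and 6 had less, against 11.1% of genes. The 8 were *Cyp7b1*, *Cyp2j9*, *Cyp2b10*, *Cyp2b19*, *Cyp2d12*, *Cyp4f40*, *Cyp2c55* and *Cyp17a1*, and the 6 were *Cyp4x1*, *Cyp4v3*, *Cyp8b1*, *Cyp27b1*, *Cyp39a1* and *Cyp2c40*. These shares (13.1% and 9.84%) are near the background, and limma called 0 members at an adjusted and 0 at an unadjusted p under 0.05. Leaving out 1 WENR library raised them, and raised the shares of all genes too. Without WT replicate 1 they were 13 and 12 (22.1% and 24.2% of genes), and without WT replicate 2 they were 13 and 15 (26.9% and 22.1% of genes). Without AHR KO replicate 1 they were 13 and 10 (21.4% and 16.1% of genes), without AHR KO replicate 2 they were 11 and 11 (20.7% and 14.3% of genes) and without AHR KO replicate 3 they were 10 and 10 (14.5% and 22.3% of genes).

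In both media 4 members had more in AHR KO, against 6.53% of genes, and 0 had less, against 0.029% of genes. They were *Cyp2b10* (mean difference 559 bp), *Cyp4f40* (535 bp), *Cyp2j9* (504 bp) and *Cyp17a1* (288 bp). At equal list length 2 members had more, *Cyp2u1* and *Cyp2j9* (4.53% of genes), and 0 had less (0.127% of genes). Per Mb of peaks 0 had more (1.33% of genes) and 2 had less, *Cyp4v3* and *Cyp4f16* (5.52% of genes), so the direction of this count turned with the scale. The count of members with more was 7 without WT WENR replicate 1 (12.2% of genes), WT WENR replicate 2 (15.3%), WT d4 ENR replicate 3 (9.01%) or AHR KO d4 ENR replicate 1 (8.68%). By the exact test over both media 8 members had an unadjusted p under 0.05 (12% of genes) and 0 an adjusted one (smallest adjusted p = 0.305), and by limma 12 (22.2% of genes) and 0. The difference of the genotype effect between media was tested too: 6 members had an unadjusted exact p under 0.05 (11.2% of genes) and 0 an adjusted one, and by limma 9 (20.3% of genes) and 0.

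The AHR:ARNT motif TNGCGTG, searched on both strands, was in 1 of 79 member promoters (1.27%), that of *Cyp2c68*, and in 5.07% of all promoters. It lay in 12 of the 155 regions over members, in the windows of *Cyp2c55*, *Cyp2c68*, *Cyp2d22*, *Cyp2j9*, *Cyp2r1*, *Cyp2t4*, *Cyp3a13*, *Cyp4f13*, *Cyp4f18* and *Cyp7b1*. In the central 300 bases of regions it was in 1.94% over members and 3.71% of all. The sites of *Cyp2j9*, covered more in AHR KO in both media, of *Cyp7b1*, and of *Cyp4f18* and *Cyp2d22*, in regions called in WENR alone, are shown on the gene's strand with the motif or its reverse complement in capitals.
Cyp2j9, position -329 from the start, chr4:96591888-96591926: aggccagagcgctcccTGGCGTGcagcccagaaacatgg
Cyp2j9, at the gene's end, chr4:96568399-96568437: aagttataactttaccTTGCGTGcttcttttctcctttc
Cyp7b1, position 293 from the start, chr3:18243026-18243064: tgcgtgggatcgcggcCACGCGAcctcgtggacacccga
Cyp4f18, inside the gene, chr8:71988528-71988566: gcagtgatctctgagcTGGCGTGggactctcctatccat
Cyp4f18, inside the gene, chr8:71988819-71988857: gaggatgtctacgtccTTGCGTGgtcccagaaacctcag
Cyp2d22, inside the gene, chr15:82379684-82379722: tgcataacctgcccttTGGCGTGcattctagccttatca

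All 6 stretches are on the minus strand. The site of *Cyp2j9* at the gene's end lay inside a peak in all 10 libraries. Its site before the start did so in all 5 WENR libraries and in 1 of 3 WT and 1 of 2 AHR KO d4 ENR libraries. The *Cyp7b1* site lay inside a peak in all 5 WENR libraries and in WT d4 ENR replicate 3, and the AHR KO d4 ENR peaks ended before it. Both *Cyp4f18* sites lay inside a peak in 1 of 2 WT and 3 of 3 AHR KO WENR libraries, and the *Cyp2d22* site in the 3 AHR KO WENR libraries.

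The partners of P450 enzymes had peaks throughout. All 7 electron donors and related proteins and all 13 transcriptional regulators on the lists had a peak in all 10 libraries. *Hnf4a*, a regulator of gut and liver epithelial genes, had 13410 and 12089 bp in the WT and 13919, 13048 and 12924 bp in the AHR KO WENR libraries, and 5271, 6238 and 7125 bp in the WT and 7012 and 8505 bp in the AHR KO d4 ENR libraries. *Por*, the reductase that supplies electrons to microsomal P450 enzymes, had 9436 and 9523 bp in the WT and 9708, 9047 and 8761 bp in AHR KO WENR libraries, and 3959, 5213 and 6520 bp in the WT and 8556 and 9781 bp in AHR KO d4 ENR libraries. Both AHR KO d4 ENR values lay in or near the range of WENR, above all WT d4 ENR values. Of the 7 partners, 6 had more in AHR KO d4 ENR and 2, *Cyb5r3* and *Fdxr*, had less in d4 ENR in both genotypes, against 54.4% and 51.3% of genes with a peak. *Fdxr*, which reduces ferredoxin for mitochondrial P450 enzymes, had 3769 and 3870 bp in the WT and 3865, 3615 and 3531 bp in AHR KO WENR libraries, and 928, 899 and 948 bp in the WT and 1571 and 1505 bp in AHR KO d4 ENR libraries. Of the 13 regulators, 6 had less in d4 ENR (*Nr1i2*, *Rara*, *Rarg*, *Hnf4a*, *Nr1h3* and *Arnt*) and 8 had more in AHR KO d4 ENR, among them *Nr1i3*, *Rxra* and *Nr5a2*. These shares (46.2% and 61.5%) are near the same background. In WENR AHR KO was above WT in *Nr1i2* and below it in *Nr1h4* and *Nr5a2*, as in the partners *Cyb5a* and *Pgrmc1*.

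The Cyp1 genes and the conjugating enzymes of the Gst, Ugt and Sult families are set beside the members. *Cyp1a1* had 2150 ± 36.1 bp (SD, n = 2) in the WT and 1774 ± 230 bp (SD, n = 3) in the AHR KO libraries in WENR, and *Cyp1b1* had 2722 ± 68.6 bp (SD, n = 2) and 2727 ± 53.3 bp (SD, n = 3). *Cyp1b1* was covered less in d4 ENR in both genotypes, and in d4 ENR none of the 3 Cyp1 genes separated the genotypes. *Cyp1a1* was covered less in AHR KO than in WT in WENR, as were 11.1% of genes with a peak. Its exact p there was 0.2, the smallest that 2 against 3 libraries allow. Of 61 conjugating enzyme genes, 45 had a peak and 35 (57.4%) had one in all 10 libraries. Among these 45, 8 (17.8%) had less in d4 ENR and 23 (51.1%) had more in AHR KO d4 ENR, where the members with a peak gave 29.5% and 37.7% and all genes with a peak 51.3% and 54.4%. The difference between these lists was not tested.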

How the data were processed

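Omni-ATAC-seq was run on sorted cells of mouse colon organoids in 10 libraries, grouped by genotype and medium from the sample labels. By the study's methods and the file headers, the authors trimmed the reads with Trim Galore, aligned them to GRCm38 with BWA under nf-core/atacseq and ran peak calling in broad mode per library, without pooling or a control, with MACS 2.2.7.1 (broad q 0.1, narrow q 0.05, background window 10000 bp). The deposited peak tables give the pileup, a signal in fragments that is not scaled for depth. They also give the authors' fold_enrichment, a ratio of pileup to local background, and the −log10 of p and q values as deposited by the peak caller. Region-level read counts were not analysed here, and depth enters only through the caller, and an absent peak means that the region did not pass its threshold.

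Bases covered by peaks were summed per gene over the GENCODE M21 gene body and 5 kb each side, and peaks of all libraries that shared at least 1 bp were merged into regions. A gene was counted where the libraries of the groups did not overlap. Exact permutation tests (2-sided) exchanged labels within genotypes or media (100 arrangements, smallest p 0.02) or within 1 medium (10 arrangements, smallest p 0.2), with Benjamini-Hochberg adjustment over 17265 genes with a peak. limma 3.58.1 (R 4.3.3) on log2(covered bases + 100) was an alternative. Python 3.11.15, numpy 2.4.6, pandas 2.3.3, scipy 1.17.1 and matplotlib 3.10.9 were used, and the tests were tried on simulated data. Promoter sequences came from RefSeq.

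The genes named are, among members whose libraries separate, the 6 with the largest difference in covered bases for the medium in each direction, 5 for genotype in d4 ENR, 3 for genotype in WENR and all for both media, the 8 with the highest share of the window covered, and all members of the retinoic acid, vitamin D, sterol and steroidogenic groups. Other genes given with values were chosen after their values were seen. The members and lists were chosen with earlier results of these data known. The alternatives were lists shortened to 33433 peaks, a −log10 q of at least 5, gene bodies alone or with 20 kb each side, covered bases per Mb of peaks, the highest fold_enrichment, limma, a replicate block and the omission of each library in turn. The count of regions without WT d4 ENR replicate 1 was added after the data were seen. Single results for some listed genes and motifs are not reported here.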

Additional observations from a re-analysis of the deposited data

Results flagged for a closer look

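In 3 members every AHR KO library lay above every WT library in d4 ENR and below every WT library in WENR. The genotype difference thus had opposite signs in the media. Of all genes with a peak, 54.4% had more in AHR KO in d4 ENR and 11.1% had less in AHR KO in WENR. The share with both is not given here, so the 3 are not read as a trait of the members. *Cyp8b1* differed by 273 bp in d4 ENR and by -104 bp in WENR, a difference between media of 377 bp. *Cyp27b1* differed by 639 bp and -104 bp, a difference between media of 743 bp. *Cyp39a1* differed by 623 bp and -86.8 bp, a difference between media of 710 bp. In each, the exact permutation test of the difference between media gave p = 0.02, the smallest it allows. The separation by which the 3 were picked fixes that p in advance, so it adds nothing to the choice. Adjusted over all genes with a peak it was 0.325, which misses the threshold. At equal list length the separation in both media held for *Cyp8b1* and not for *Cyp27b1* and *Cyp39a1*, and per Mb of peaks none of the 3 separated the genotypes with more in AHR KO in d4 ENR. By limma the log2 difference between media was 0.73 ± 0.22 (SE) in *Cyp8b1*, 1.57 ± 1.34 (SE) in *Cyp27b1* and 0.82 ± 0.34 (SE) in *Cyp39a1*, with adjusted p of 0.150, 0.450 and 0.235. The *Cyp39a1* window holds the start of *Slc25a27* in its promoter region, and *Cyp27b1* had no peak in WT d4 ENR replicate 1.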

How the results depend on the processing

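With lists of equal length, 8 members had less and 1 more in d4 ENR, 3 had more and 3 less in AHR KO in WENR, and 2 had more in both media. With a −log10 q of at least 5, 21 members had a peak in all 10 libraries, 5 had more in AHR KO in WENR and 2 in both media. Over gene bodies alone, and again with 20 kb each side, 1 had more in d4 ENR, 5 more in AHR KO in WENR and 2 in both media. Per Mb of peaks, 5 had less and 13 more in d4 ENR, 4 had more and 9 less in AHR KO in d4 ENR, and 0 had more and 2 less in both media. By the highest fold_enrichment, 11 had less and 1 more in d4 ENR, 4 had more in AHR KO in d4 ENR and 2 in both media. Of these 4, *Cyp7a1* and *Cyp27b1* were among the 23 with more covered bases, and *Cyp2b19* and *Cyp19a1* were not. The rest of the 23 did not separate the genotypes by this measure. By limma, 7 had more in AHR KO in d4 ENR, 0 had more and 0 less in WENR, and 0 had more in both media. The highest fold_enrichment turned 5 directions: AHR KO minus WT in d4 ENR was -0.26 in *Cyp26b1*, -0.056 in *Cyp2d34*, -0.067 in *Cyp4f13* and -0.24 in *Cyp4f14*, and d4 ENR minus WENR was 0.11 in *Cyp2j6*. The cause was not tested. Leaving out 1 library gave 18 to 21 with less and 0 to 5 with more in d4 ENR, 23 to 38 with more and 0 to 3 with less in AHR KO in d4 ENR, 8 to 13 and 6 to 15 in WENR, 4 to 7 and 0 to 1 in both media, 35 to 40 with a peak in all 10 libraries and 29 with none throughout. Of the alternatives to these counts, 126 stayed within 1.5 times and 57 did not. Where no share of all genes is given in the sections above, a count shows only how far it moved with the setting.

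With the replicate block, in which libraries are compared only with those of the same number, 1 member had more in d4 ENR, 43 had more and 1 less in AHR KO in d4 ENR, 15 had more and 14 less in WENR, and 12 had more and 1 less in both media. The medium rests on 4 pairs and each genotype comparison on 2 pairs within a medium, and by construction 2 pairs separate more often than 2 against 3 libraries. Shares of all genes are not set beside these counts, so the counts are not read as a result about the members. The labels do not say that a number marks a shared mouse or line, so the numbers were not taken to pair the libraries. Deviations of same-numbered libraries from their group means correlated at -0.038 to 0.157. Each of these comparisons has a group of 2 libraries, whose deviations mirror each other, so the correlations cannot decide whether libraries are paired.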
